A study of Mus musculus with 24 samples.

Results

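The genes described here are 10 heat-shock chaperones, taken by symbol from the deposited table of mouse islet cell RNA-seq: Hspa1a, Hspa1b, Hspa8, Hsph1, Hsp90aa1, Dnajb1, Dnaja1, Hspb1, Hspd1 and Hspe1. All 10 were present among the 41549 genes of the table, and all 10 passed the filter on low counts that left 15916 genes for testing. The 24 libraries came from dispersed islet cells of wild type C57BL/6NRj mice of both sexes, aged 12 to 14 weeks. The cells received 50 pmol of an antisense oligonucleotide (ASO), either a control (Ctr) or one against the tRNA fragment 5'tRF Glu(CTC) (aGlu), and were then kept for 48 h in 0.75% BSA, the fatty acid carrier, or in 0.5 mM palmitate complexed with BSA (PA). This made 4 groups of 6 libraries, Ctr BSA, Ctr PA, aGlu BSA and aGlu PA, and each group had 3 libraries in batch 1 and 3 in batch 2. All groups, controls included, were transfected, and the libraries are of mixed islet cells, so that fewer cells of a type and less RNA per cell cannot be told apart.

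The agent that separated the aGlu from the Ctr groups is shown with its target because one arm of the design rests on it. Capitals mark the 20 bases of the target that pair with the ASO.
aGlu ASO: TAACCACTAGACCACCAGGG
target in 5'tRF Glu(CTC): tCCCTGGTGGTCTAGTGGTTA

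Heat-shock proteins are chaperones that bind unfolded or partly folded proteins and help them to fold, to refold or to be degraded. The Hsp70 proteins work in cycles of ATP hydrolysis that J-domain co-chaperones start and Hsp110 proteins help to reset, Hsp90 acts later on kinases and receptors, small heat-shock proteins hold unfolded clients without ATP, and the chaperonin Hsp60 with its lid Hsp10 folds proteins in the mitochondrial matrix. Many of these genes are induced by heat and other protein-damaging stress through the transcription factor HSF1, which binds heat-shock elements made of alternating GAA and TTC units, whereas Hspa8 is expressed in most cells without stress.

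By position in GRCm38, the 2 inducible Hsp70 genes lie on chromosome 17 on the minus strand, Hspa1b at chr17:34956436-34959238 and Hspa1a at chr17:34969190-34972156, each with 1 exon, and 9952 bases separate them. Their transcripts are close copies. Of the 100-base stretches of the Hspa1a transcript, 47.1% were found letter for letter in Hspa1b, and of those of Hspa1b 49.9% were found in Hspa1a, so reads from one gene could be counted on the other and their separate values are uncertain. An exon of Gm20481 lies on the opposite strand within the Hspa1a exon. Hspd1 (chr1:55077835-55088243, minus strand) and Hspe1 (chr1:55088132-55091307, plus strand) are neighbours that point away from each other, and their first exons overlap on opposite strands. Exons of other genes also overlapped those of Hspa8, where they are snoRNA genes, and of Dnaja1. The sources used here do not say whether the counting used strand.

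The bases before the transcription start are shown for the 2 Hsp70 copies and for Hspb1, since these genes moved most between libraries. RefSeq windows of GRCm38.p6 were held for 8 of the 10 genes, all but Hspa8 and Hsp90aa1. The 250 bases before each start were searched on both strands for pairs of heat-shock units, GAANNTTC or TTCNNGAA, which can overlap each other and read the same on either strand. Capitals mark the matches.
Hspa1a (chr17:34972157-34972406, minus strand): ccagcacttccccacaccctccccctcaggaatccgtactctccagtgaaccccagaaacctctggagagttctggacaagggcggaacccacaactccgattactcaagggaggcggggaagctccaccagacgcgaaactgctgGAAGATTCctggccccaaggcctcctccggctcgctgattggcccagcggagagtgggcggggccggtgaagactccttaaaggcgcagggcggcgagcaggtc
Hspa1b (chr17:34959239-34959488, minus strand): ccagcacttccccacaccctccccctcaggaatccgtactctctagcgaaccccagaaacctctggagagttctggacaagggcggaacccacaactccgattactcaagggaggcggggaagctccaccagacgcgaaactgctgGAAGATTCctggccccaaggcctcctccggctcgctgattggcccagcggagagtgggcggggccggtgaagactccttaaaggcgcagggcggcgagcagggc
Hspb1 (chr5:135887669-135887918, plus strand): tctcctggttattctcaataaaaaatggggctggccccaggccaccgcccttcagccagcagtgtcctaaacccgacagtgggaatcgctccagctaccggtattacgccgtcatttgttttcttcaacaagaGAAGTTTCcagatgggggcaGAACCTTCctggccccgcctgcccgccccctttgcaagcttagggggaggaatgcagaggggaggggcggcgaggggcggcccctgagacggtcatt
The 2 Hsp70 copies differed at 3 of these 250 bases and had the same match, and Hspb1 had 2 matches.

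For the genes whose matches lie inside an annotated first exon of a transcript, 30 bases around them are shown.
Hspe1, shared with Hspd1 (chr1:55088053-55088082, plus strand): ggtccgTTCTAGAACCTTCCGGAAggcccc
Hsph1 (chr5:149636351-149636380, minus strand): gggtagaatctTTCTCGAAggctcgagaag
Dnaja1 (chr4:40722333-40722362, plus strand): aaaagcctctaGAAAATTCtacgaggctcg
The 18 capitals between Hspd1 and Hspe1 hold overlapping pairs without a break, so that the longer patterns GAANNTTCNNGAA and TTCNNGAANNTTC both occur there. A pair was found before at least 1 start of 7 of the 8 genes, Dnajb1 having none in these windows, and the longer patterns were found for 2, Hspd1 and Hspe1. Of all 32851 windows of the same length, 12.8% held a pair and 0.466% held a longer pattern. These shares are per window, while the 8 genes had 13 windows, so the counts by gene are not on the same scale. The Hsp70 copies hold the same match and Hspd1 and Hspe1 share theirs, so the matches are not separate finds. These matches describe letters and are not measured binding.

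Between genes, levels were compared with the deposited TPM, which is per transcript length. In Ctr BSA cells Hspa8, the constitutive Hsp70, was the most abundant of the 10 at 744 TPM ± 132 (SD, n = 6), rank 84 in the table of 41549 genes. It was followed by Hsp90aa1, the inducible cytosolic Hsp90, at 328 TPM ± 72.3, and by Hspd1, the mitochondrial Hsp60, at 194 TPM ± 33. Hspb1, the small heat-shock protein Hsp27 of humans and Hsp25 of mice, averaged 117 TPM with an SD of 101. Hspe1, the lid of Hsp60, averaged 60.8 TPM ± 6.13, the J-domain protein Dnaja1 50.8 TPM ± 8.98, the Hsp110 gene Hsph1 38.7 TPM ± 9.62 and the other J-domain gene Dnajb1 27.8 TPM ± 4.06. The inducible Hsp70 genes came last, Hspa1b at 9.72 to 33.1 TPM (median 18.2) and Hspa1a at 18.5 TPM ± 8.22.

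Only the ranges of Hspa8 and Hsp90aa1 were apart among neighbours in this order. The other neighbouring pairs had overlapping ranges over the 6 libraries, although Hsp90aa1 exceeded Hspd1, and Hspe1 exceeded Dnaja1, in 24 of 24 libraries. Hspb1 was above Hspe1 in 12 of 24, the 12 of batch 1. Together the 10 genes took 0.115 to 0.228% of all TPM in a library, and Hspa8 made up 46.5% of their sum in Ctr BSA. The order of the 10 genes by deposited RPKM was the same.

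**Figure D1:**
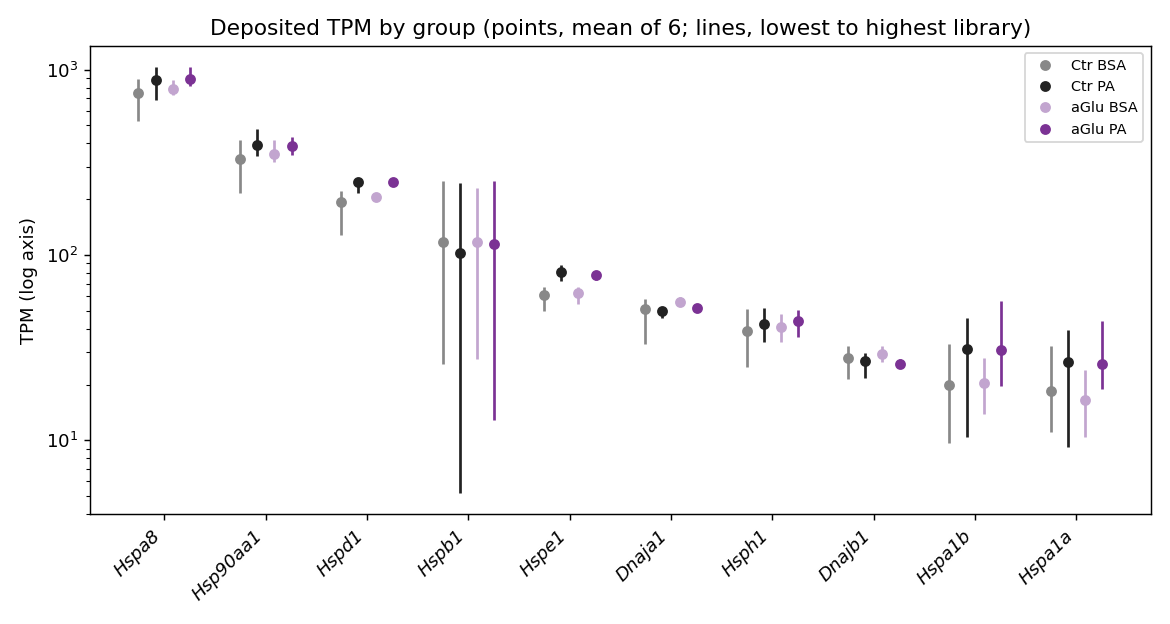
Deposited TPM on a log axis for the 10 genes, ordered by their mean in Ctr BSA, with points for the mean of 6 libraries of each group and lines from the lowest to the highest library. Hspa8 leads at 744 TPM in Ctr BSA, and Hspb1 has the longest lines, with an SD of 101 TPM in Ctr BSA.

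Depth was ample for these genes. Library totals ran from 18214719 to 35001979 counts, the lowest count of any of the 10 genes in a library was 59, for Hspb1, and the highest was 47300, for Hspa8. Rank correlations between libraries over all tested genes ran from 0.943 to 0.996. From here on, values of 1 gene in different libraries are TMM-scaled CPM, counts relative to the size of their library, and differences are log2 fold changes with their standard error from the edgeR quasi-likelihood fit on all 24 libraries, with batch in the model and p-values adjusted over all 15916 genes by Benjamini-Hochberg. A gene passed the test at an adjusted p below 0.05.

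The first question is what PA did to these chaperones in cells with the control ASO. There 5 of the 10 genes rose and none fell, at a background of 30% of all tested genes that passed (15.5% higher and 14.5% lower). The median log2 fold change of the 10 was 0.20, against 0.01 over all genes. The 5 were the mitochondrial pair Hspd1 and Hspe1, Hsp90aa1, Hspa8 and Hspa1b. With the aGlu ASO, 6 genes passed at a background of 28.5% (14.4% higher and 14.2% lower): Hspd1, Hspe1, Hspa8, Hspa1a and Hspa1b rose and Dnajb1 fell. The median there was 0.16, against 0.01 over all genes. None of the 10 reached a fold of 2 in either comparison, a size that 5.91% of all tested genes passed in Ctr and 5.57% in aGlu at an unadjusted p below 0.05.

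The mitochondrial chaperonin genes separated the groups most clearly. Hspd1 ran from 162 to 199 CPM in Ctr BSA with a median of 193, and from 222 to 245 with a median of 231 in Ctr PA. With the aGlu ASO it ran from 172 to 205 (median 194) in BSA and from 211 to 250 (median 233) in PA. Every PA library lay above every BSA library of the same ASO. Hspd1 rose by a log2 fold change of 0.30 ± 0.05 in Ctr (23.3% higher, adjusted p = 4.39e-05) and of 0.27 ± 0.05 in aGlu (adjusted p = 0.000171).

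Hspe1, which closes the Hsp60 chamber, ran from 31.1 to 35 CPM (median 33.6) in Ctr BSA and from 36.9 to 48.3 (median 42.9) in Ctr PA. In aGlu cells it ran from 27.2 to 36.3 (median 33.6) in BSA and from 37 to 44 (median 40.5) in PA. The groups did not overlap under either ASO. The increase was 0.35 ± 0.065 in Ctr (adjusted p = 0.00024) and 0.32 ± 0.0649 in aGlu (adjusted p = 0.000541). Hspd1 and Hspe1 were the 2 genes of the 10 without overlap in each comparison, where 5.82% of all tested genes did not overlap in Ctr and 8.12% in aGlu. Both genes passed without any 1 of the 24 libraries. Within batches the difference of Hspd1 in Ctr was 0.30 ± 0.08 in batch 1 and 0.29 ± 0.06 in batch 2. That of Hspe1 in Ctr was 0.25 ± 0.10 in batch 1, which did not pass (adjusted p = 0.109), and 0.44 ± 0.08 in batch 2. In aGlu, Hspd1 in batch 1 did not pass (0.25 ± 0.08, adjusted p = 0.0766).

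**Figure D2:**
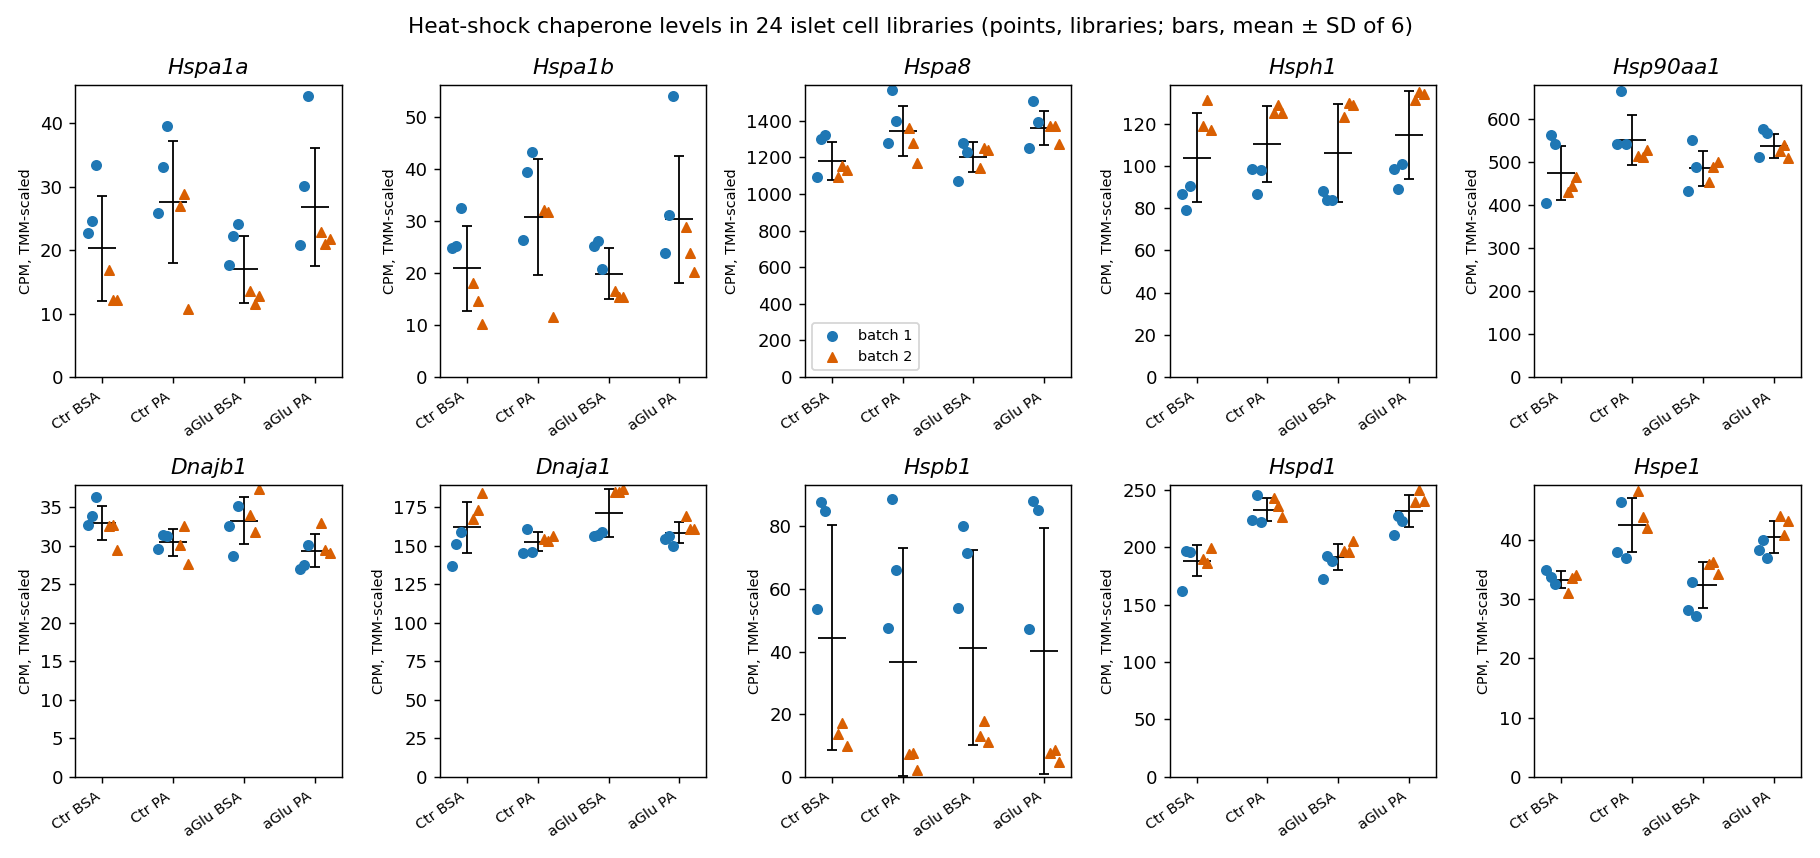
TMM-scaled CPM of the 10 genes in 24 libraries by group, with circles for batch 1, triangles for batch 2, and bars for the mean and SD of 6 libraries. Hspd1 and Hspe1 are higher in each PA group than in its BSA group with no overlap, while Hspb1 and Hsph1 split by batch.

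The inducible Hsp70 genes had larger fold changes and a wider spread. Hspa1a ran from 12.1 to 33.5 CPM (median 19.8) in Ctr BSA, from 10.8 to 39.6 (median 27.9) in Ctr PA, from 11.5 to 24.1 (median 15.7) in aGlu BSA and from 20.8 to 44.4 (median 22.4) in aGlu PA. All these ranges overlapped. The difference with PA was 0.48 ± 0.19 in Ctr, which did not pass (adjusted p = 0.0611), and 0.68 ± 0.19 in aGlu, where Hspa1a rose (adjusted p = 0.00933).

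Hspa1b ran from 10.1 to 32.5 CPM (median 21.4) in Ctr BSA, from 11.5 to 43.2 (median 31.8) in Ctr PA, from 15.3 to 26.1 (median 18.7) in aGlu BSA and from 20.1 to 53.9 (median 26.4) in aGlu PA. It rose by 0.60 ± 0.21 in Ctr (51.5% higher, adjusted p = 0.0326) and by 0.61 ± 0.21 in aGlu (adjusted p = 0.0295). The ratio of Hspa1b to Hspa1a stayed between 0.831 and 1.41 over the libraries. With the counts of both copies summed, the increase in Ctr was 0.54 (adjusted p = 0.0368).

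The rise of Hspa1a in aGlu passed without any 1 of the 24 libraries (adjusted p from 0.00231 to 0.0336). The other Hsp70 results depended on single libraries. The Ctr PA library S23 was the lowest of its group at 10.8 CPM of Hspa1a and 11.5 CPM of Hspa1b, and without it Hspa1a also passed in Ctr, at 0.61 (adjusted p = 0.00743). Hspa1a in Ctr also passed without Ctr BSA S9 (adjusted p = 0.0271), Ctr PA S3 (adjusted p = 0.0389) or aGlu PA S4 (adjusted p = 0.0405). The increase of Hspa1b in Ctr did not pass without Ctr BSA S5, S17 or S21 or Ctr PA S7, S11, S15 or S19, with adjusted p from 0.0505 to 0.0858. In aGlu it did not pass without aGlu BSA S10 (adjusted p = 0.0673), aGlu PA S12 (adjusted p = 0.106) or aGlu PA S16 (adjusted p = 0.0712). Within a batch neither gene passed in either ASO, with adjusted p from 0.0789 to 0.513, and the differences were all positive, from 0.28 to 0.82.

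Hspa8, which folds new proteins and uncoats clathrin vesicles, rose little from its high level. It ran from 1090 to 1320 CPM (median 1140) in Ctr BSA and from 1170 to 1570 (median 1320) in Ctr PA. In aGlu cells it ran from 1070 to 1280 (median 1240) in BSA and from 1250 to 1510 (median 1370) in PA. The ranges overlapped, with 3 of 6 Ctr PA and 4 of 6 aGlu PA libraries above all BSA libraries of that ASO. The increase was 0.18 ± 0.07 in Ctr (adjusted p = 0.0369) and 0.18 ± 0.07 in aGlu (adjusted p = 0.0417). In Ctr it did not pass without Ctr BSA S1, S13 or S21 or Ctr PA S7, S11 or S15, with adjusted p from 0.0599 to 0.109. In aGlu it did not pass without aGlu BSA S2, S10 or S14, aGlu PA S8, S12, S16 or S20, or Ctr BSA S17, with adjusted p from 0.0522 to 0.116.

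Hsph1, an Hsp110 that exchanges the nucleotide of Hsp70, differed by 0.10 ± 0.05 in Ctr (adjusted p = 0.126) and 0.12 ± 0.05 in aGlu (adjusted p = 0.0594) and passed in neither. Its levels ran from 78.9 to 131 CPM (median 104) in Ctr BSA, from 86.9 to 129 (median 112) in Ctr PA, from 83.9 to 130 (median 106) in aGlu BSA and from 89.1 to 135 (median 116) in aGlu PA. Within each batch the 3 aGlu PA libraries lay above the 3 aGlu BSA libraries, and 21% of all tested genes were likewise separated, one way or the other, in each batch. In aGlu it passed without Ctr PA S23 (adjusted p = 0.0479), aGlu BSA S18 (adjusted p = 0.0484) or aGlu PA S8 (adjusted p = 0.0384).

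Hsp90aa1 ran from 404 to 561 CPM (median 455) in Ctr BSA, from 510 to 665 (median 534) in Ctr PA, from 432 to 550 (median 487) in aGlu BSA and from 509 to 575 (median 531) in aGlu PA. It rose by 0.21 ± 0.07 in Ctr (adjusted p = 0.0279), while the difference of 0.15 ± 0.07 in aGlu did not pass (adjusted p = 0.133). These 2 responses differed by -0.07 ± 0.10, with a 95% interval from -0.28 to 0.14. In Ctr the call was lost without Ctr BSA S1 (adjusted p = 0.0694), Ctr BSA S13 (adjusted p = 0.0616) or Ctr PA S7 (adjusted p = 0.0896), the library with the highest value.

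The fitted differences of the J-domain genes with PA were negative. Dnajb1, the main J-domain partner of inducible Hsp70 in the cytosol, ran from 29.4 to 36.3 CPM (median 32.7) in Ctr BSA and from 27.6 to 32.6 (median 30.7) in Ctr PA, and from 28.6 to 37.4 (median 33.3) in aGlu BSA and from 27 to 33 (median 29.3) in aGlu PA. The difference of -0.11 ± 0.06 in Ctr did not pass (adjusted p = 0.19), and in aGlu Dnajb1 fell by 0.18 on the log2 scale (SE 0.06, adjusted p = 0.0391). That call was lost without aGlu BSA S2, S10, S14 or S22 or aGlu PA S4, S8, S20 or S24, with adjusted p from 0.0543 to 0.111. Dnaja1, a J-domain protein of the cytosol, ran from 137 to 184 CPM (median 163) in Ctr BSA, from 145 to 161 (median 153) in Ctr PA, from 156 to 187 (median 172) in aGlu BSA and from 150 to 169 (median 159) in aGlu PA. Its differences of -0.08 ± 0.05 in Ctr (adjusted p = 0.204) and -0.11 ± 0.05 in aGlu (adjusted p = 0.0816) did not pass. Without the Ctr BSA library S1 the latter passed (adjusted p = 0.0448).

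Hspb1 had the widest range of the 10 genes relative to its level. It ran from 9.83 to 87.8 CPM (median 35.4) in Ctr BSA, from 2.11 to 88.9 (median 27.7) in Ctr PA, from 11.2 to 80.1 (median 35.9) in aGlu BSA and from 4.84 to 88.1 (median 27.8) in aGlu PA. All ranges overlapped. With PA it differed by -0.61 ± 0.27 in Ctr (adjusted p = 0.0956) and by -0.39 ± 0.27 in aGlu (adjusted p = 0.302), neither of which passed. Without Ctr BSA S1 (-0.74, adjusted p = 0.0472) or without Ctr PA S7 (-0.81, adjusted p = 0.0324) the difference in Ctr passed.

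**Figure D3:**
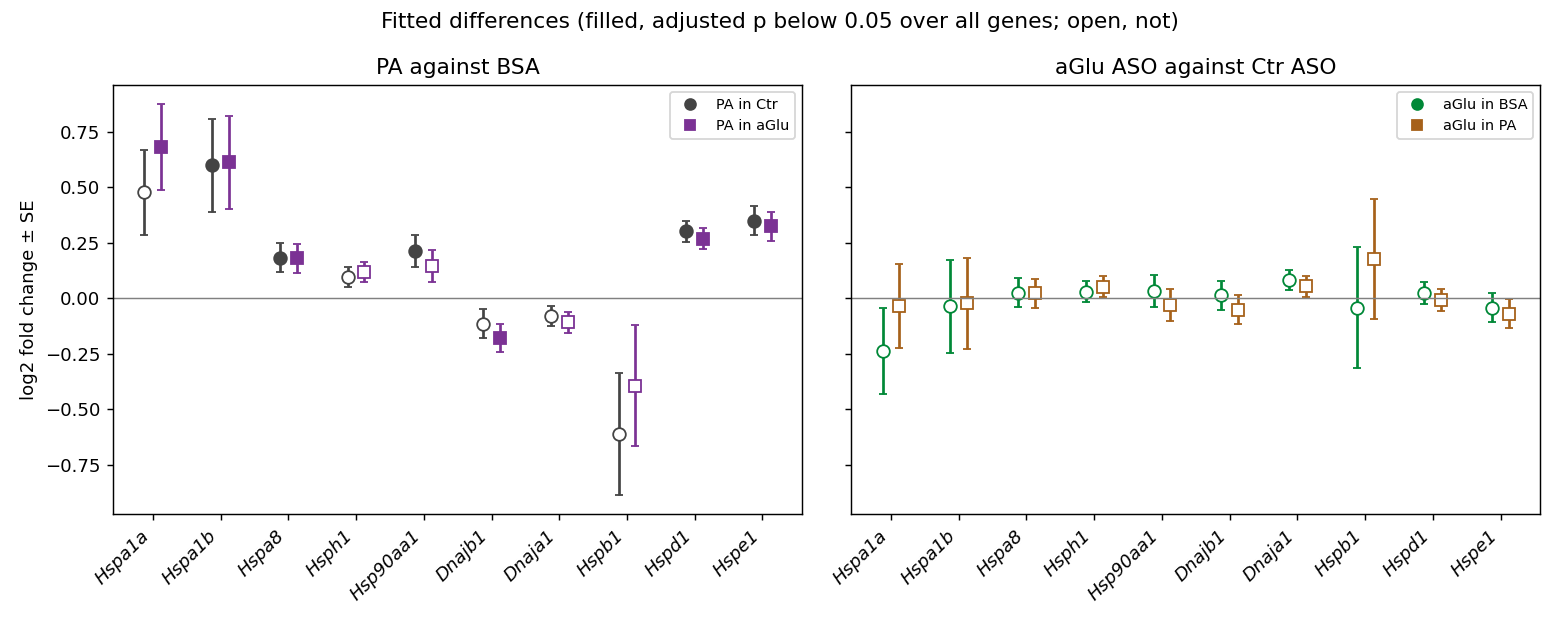
Fitted log2 fold changes ± SE of the 10 genes for PA against BSA (left, Ctr and aGlu) and for the aGlu against the Ctr ASO (right, in BSA and in PA), with filled symbols for an adjusted p below 0.05. On the left 5 Ctr and 6 aGlu symbols are filled, and on the right none is.

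The second question is whether the aGlu ASO moved these genes or their response to PA. None of the 10 passed in BSA, in PA, in the mean of both, or in the test of the difference between the PA responses, and DESeq2 called 0 of the 10 in each. In edgeR none of the 15916 genes passed in BSA, in PA or in the difference between responses (background 0% in each), with 461, 538 and 332 genes at an unadjusted p below 0.05, and DESeq2 called 8, 30 and 0 genes. In the mean over both treatments 38 genes passed in edgeR (0.239%) and 90 in DESeq2. Of the 10 chaperones, none was below that unadjusted level in BSA, in PA or in the difference between responses, and 1 was in the mean of both, Dnaja1 (0.07 ± 0.03, adjusted p = 1).

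The width of the 95% intervals differed by gene. In BSA the 95% interval of the aGlu difference was -0.11 to 0.16 for Hspa8, -0.08 to 0.12 for Hspd1 and -0.18 to 0.09 for Hspe1. In PA it was -0.11 to 0.16 for Hspa8, -0.11 to 0.09 for Hspd1 and -0.20 to 0.06 for Hspe1. For the variable genes the intervals were wider, from -0.42 to 0.36 for Hspa1a, from -0.45 to 0.40 for Hspa1b and from -0.39 to 0.74 for Hspb1 in PA. The response of Hspa1a to PA differed between the ASOs by 0.20 ± 0.27 (interval -0.35 to 0.76). Dnaja1 in batch 2 was the member whose aGlu libraries lay above all Ctr libraries in both treatments, at 185 to 187 against 167 to 184 CPM in BSA and at 161 to 169 against 153 to 156 in PA, and in batch 1 the groups overlapped. It was singled out after its values were seen, and 0.377% of all tested genes were separated in both treatments in batch 2, upwards or downwards.

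The labels split each group over 2 batches and do not say what a batch was. Between batches 7 of the 10 genes passed, at a background of 51.5% of all tested genes (26.1% higher and 25.4% lower in batch 2). Hsph1, Dnaja1, Hspd1 and Hspe1 were higher in batch 2, and Hspb1, Hspa1a and Hspa1b were lower. Hspb1 ran from 47.1 to 88.9 CPM (median 75.8) in the 12 libraries of batch 1 and from 2.11 to 17.8 (median 9.17) in the 12 of batch 2. Hsph1 ran from 78.9 to 101 CPM (median 88.5) in batch 1 and from 117 to 135 (median 129) in batch 2. These 2 genes did not overlap between the batches, as did 6.87% of all tested genes.

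Hspb1 was lower in batch 2 by a log2 fold change of -2.91 ± 0.20 (86.7% lower, adjusted p = 2.87e-11), a size that 0.792% of all tested genes exceeded. It alone of the 10 was past a fold of 2, as were 6.38% of all genes at an unadjusted p below 0.05. Hsph1 was higher by 0.50 ± 0.03 (41% higher, adjusted p = 1.34e-11). Hspa1a (-0.70 ± 0.14, adjusted p = 0.000114) and Hspa1b (-0.66 ± 0.15, adjusted p = 0.000559) were lower, with overlapping ranges of 17.7 to 44.4 against 10.8 to 28.8 CPM for Hspa1a. Dnaja1 (0.15 ± 0.03, adjusted p = 0.000479), Hspe1 (0.13 ± 0.05, adjusted p = 0.0175) and Hspd1 (0.08 ± 0.03, adjusted p = 0.0434) were a little higher. The call of Hspd1 was lost without any 1 of 16 libraries (adjusted p up to 0.082) and kept without S5, S6, S7, S9, S13, S17, S19 or S23. Hspa8, Dnajb1 and Hsp90aa1 did not pass, the last at -0.11 ± 0.05 (adjusted p = 0.0717), and it passed without Ctr BSA S1 (adjusted p = 0.0149) or aGlu BSA S2 (adjusted p = 0.0285).

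Markers of other cells moved with the batches. All 7 measured acinar markers of the exocrine pancreas were lower in batch 2, their summed level running from 2280 to 14900 CPM in batch 1 and from 174 to 483 in batch 2. All 9 beta cell markers were higher in batch 2 (83700 to 134000 against 110000 to 152000 CPM summed), and 6 of 7 markers of alpha, delta and PP cells were lower. Of the ductal markers 5 of 7 were lower and 1 was higher (408 to 591 against 240 to 441 CPM summed), and of the 14 immediate early genes, which respond within minutes to stimulation, 12 were lower and 1 was higher (639 to 856 against 388 to 537 CPM summed). Their part in the batch differences of Hspb1, Hsph1 and the Hsp70 genes was not tested.

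The response to PA was also compared between batches, as a test of the difference averaged over both ASOs. In edgeR none of the 10 passed, at a background of 0.0565%, with 2 at an unadjusted p below 0.05, and DESeq2 called 0. Hspb1 had the smallest p of the 10 and the only difference past a fold of 2, where 1.49% of all genes were past it at an unadjusted p below 0.05 (-1.09 ± 0.34, adjusted p = 0.511). In batch 2 it ran from 9.83 to 17.1 CPM in Ctr BSA and from 2.11 to 7.74 in Ctr PA, and from 11.2 to 17.8 in aGlu BSA and from 4.84 to 8.5 in aGlu PA, so that all 6 PA libraries lay below all 6 BSA libraries. In batch 2 13.9% of all tested genes were separated in this way in either direction, 4 of the 10 among them (Hspb1, Hsp90aa1, Hspd1 and Hspe1). In batch 1 the PA and BSA libraries of Hspb1 overlapped. The fits within batches gave -1.25 ± 0.38 (adjusted p = 0.0505) in Ctr and -0.999 ± 0.38 (adjusted p = 0.106) in aGlu in batch 2, and -0.18 ± 0.27 and 0.09 ± 0.27 in batch 1.

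Dnaja1 was next, with a difference between batches of -0.17 ± 0.06 (adjusted p = 0.573). In batch 2 it lay at 153 to 156 CPM in Ctr PA against 167 to 184 in Ctr BSA, without overlap, as for 27.9% of all tested genes. With the aGlu ASO it lay at 161 to 169 in PA against 185 to 187 in BSA. In that comparison 37.9% of all tested genes, and 9 of the 10 members, did not overlap. The within-batch differences in Ctr were -0.18 ± 0.06 in batch 2 and 0.01 ± 0.07 in batch 1. Fibroblast and stellate cell markers also moved with PA: 7 of 8 tested fell in Ctr and 5 of 8 in aGlu, with a summed level of 139 to 570 CPM in Ctr BSA and 12.5 to 67.8 in Ctr PA. Of the acinar markers 4 of 7 fell with PA in Ctr and 3 of 7 in aGlu, and of the macrophage markers 8 of 10 and 1 of 10. Ductal markers fell in 3 of 7 under each ASO, and those of alpha, delta and PP cells in 3 of 7 and 1 of 7. Of 14 immediate early genes 5 fell and 1 rose under each ASO. Of 9 beta cell markers 2 rose and 3 fell in Ctr, and 2 rose and 2 fell in aGlu. No endothelial or Schwann cell and glia marker passed. Their part in the PA values of Hspb1 and the other genes was not tested.

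**Figure D4:**
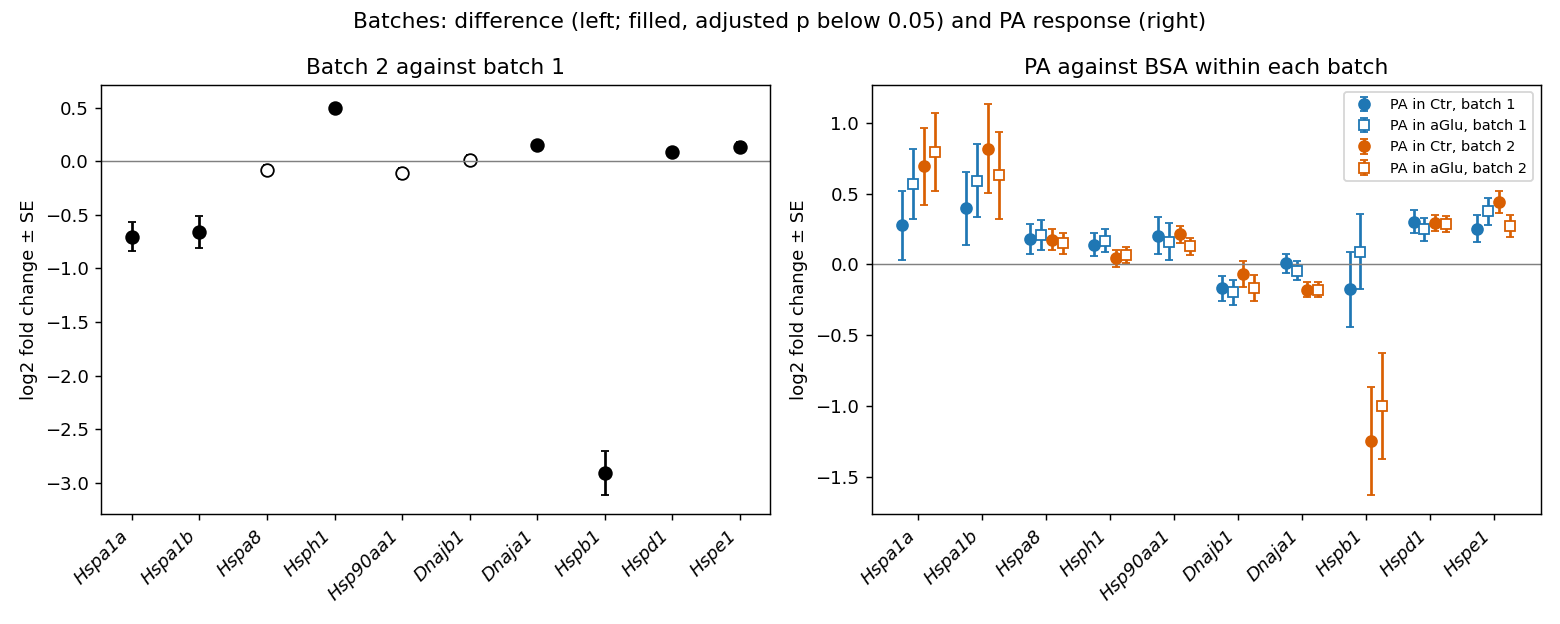
Log2 fold change ± SE of the 10 genes between batch 2 and batch 1 (left, filled for an adjusted p below 0.05) and for PA against BSA within each batch (right, circles for Ctr and open squares for aGlu). Hspb1 lies at -2.91 on the left, and on the right its PA values are -1.25 and -0.999 in batch 2 against -0.18 and 0.09 in batch 1.

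Other genes of the system, from lists of known members, put these values in context. Of 8 heat-shock factors and modulators, 1 rose and 3 fell with PA in Ctr, and 1 rose and 1 fell in aGlu. Hsf2, a heat-shock factor with roles in development, rose by 0.42 ± 0.07 in Ctr (adjusted p = 4.56e-05) and by 0.31 ± 0.07 in aGlu (adjusted p = 0.00114), and the corepressor Trim28 fell by 0.28 and 0.26 on the log2 scale (adjusted p = 0.000565 and 0.00106). Ier5, which promotes HSF1 activity, fell by 0.27 in Ctr (adjusted p = 0.022). Hsf1 mRNA, the main heat-shock factor, which is controlled largely after translation, differed by -0.13 ± 0.08 in Ctr and did not pass (adjusted p = 0.22).

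Of 38 other cytosolic chaperones and co-chaperones, 7 rose and 3 fell in Ctr, and 6 rose and 3 fell in aGlu, with medians of 0.03 and 0.06. Fkbp5, a glucocorticoid-induced Hsp90 co-chaperone, rose by 0.48 ± 0.06 in Ctr (adjusted p = 2.75e-06) and by 0.46 ± 0.06 in aGlu (adjusted p = 4.35e-06), and St13, an Hsp70-interacting protein, by 0.35 and 0.24 (adjusted p = 1.35e-05 and 0.000744). Unc45a, a myosin chaperone, fell by 0.31 in Ctr (adjusted p = 0.0014). None of 14 genes of the cytosolic chaperonin TRiC and prefoldin passed in either ASO in edgeR, 2 of them, Vbp1 and Cct7, being below an unadjusted p of 0.05 in Ctr and 1 in aGlu, and DESeq2 called 0 in each.

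Of 14 mitochondrial chaperones and proteases other than Hspd1 and Hspe1, 8 rose and none fell in Ctr, with a median of 0.24, and 7 rose and 1 fell in aGlu, with a median of 0.25. The matrix protease Lonp1 rose by 0.72 ± 0.08 in Ctr (adjusted p = 2.31e-07), the mitochondrial Hsp70 gene Hspa9 by 0.57 ± 0.07 (adjusted p = 1.06e-06) and its J-domain partner Dnaja3 by 0.41 ± 0.05 (adjusted p = 7.01e-07). In aGlu they rose by 0.74, 0.48 and 0.38. Of 15 ER chaperones 14 rose and 1 fell in Ctr, and 11 rose and 1 fell in aGlu, Hspa5, the ER Hsp70, by 0.45 and 0.39 (adjusted p = 1.63e-05 and 9.08e-05).

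Of 9 other small heat-shock proteins 5 were tested. Hspb7, known from heart and muscle, fell by 1.67 on the log2 scale in Ctr (SE 0.32, adjusted p = 0.000296) and by 2.15 in aGlu (SE 0.33, adjusted p = 3.11e-05), and Hspb6 rose by 0.25 ± 0.09 and 0.26 ± 0.09 (adjusted p = 0.042 and 0.0342). Cryab, the alphaB-crystallin gene, differed by -0.58 ± 0.25 in Ctr (adjusted p = 0.0789) and fell by 0.82 in aGlu (adjusted p = 0.0169). Between batches Cryab (-1.71 ± 0.18, adjusted p = 2.38e-08) and Hspb8 (-1.18 ± 0.11, adjusted p = 1.38e-09) were lower in batch 2, as was Hspb1, while Hspb6 was higher (0.55 ± 0.06, adjusted p = 1.22e-07).

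After group and batch means were taken off, the 10 genes did not vary as 1 set. The means were additive, so a response to PA that differed between batches stays in these residuals. The residual SD on the log2 scale, after group and batch, was 0.59 for Hspb1, 0.41 for Hspa1b and 0.38 for Hspa1a, against a median of 0.18 over all tested genes. It was 0.07 for Dnaja1 and Hsph1 and 0.08 for Hspd1, and 95.3 to 96.6% of all genes had a larger one than these 3. That share was not matched by count, and these 3 genes had high median counts per library, from 2944.5 for Hsph1 to 5745.5 for Hspd1. As a description over 24 libraries, which share depth and handling, residuals of Hspa1a and Hspa1b correlated at a Pearson's r of 0.90. How the counting assigned reads that match both copies is not given in the sources used here. Hspa8, Hsp90aa1 and Hspd1 formed a second block, with r of 0.84 for Hspa8 with Hsp90aa1, 0.84 for Hspa8 with Hspd1 and 0.90 for Hsp90aa1 with Hspd1. The residuals of these 3 genes were negative in all 4 libraries from S1 to S4 and positive in all 4 from S5 to S8. With the mean of each run of 4 library numbers taken off in place of the batch mean, the 3 values of r were 0.65, 0.68 and 0.81, and that of Hspa1a with Hspa1b was 0.87. Hsph1 had r from -0.30 to 0.19 to the other 9 after group and batch. With the run means taken off instead, its r ran from -0.02 with Hspa1a to 0.61 with Hspb1, so it did not lay apart there. After group and batch, 39 of the 45 pairs were above 0, with a median of 0.28. Hspd1 and Hspe1, which share the region between their starts, had an r of 0.29.

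**Figure D5:**
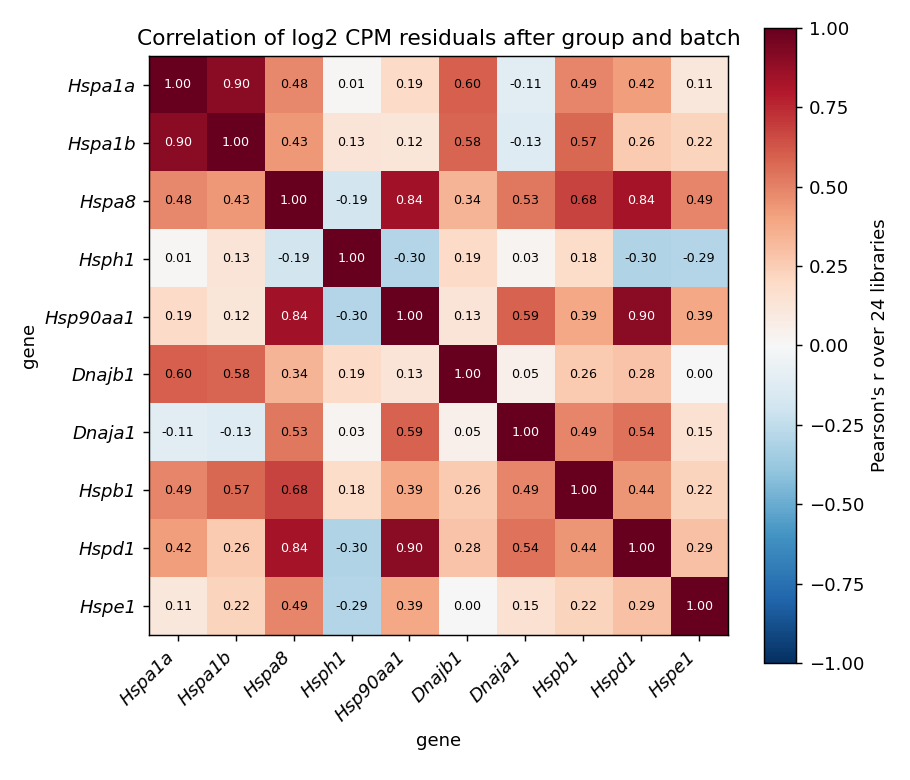
Pearson's r over 24 libraries between the log2 CPM residuals of the 10 genes after group and batch means were taken off, on a scale from -1 to 1. The Hspa1a and Hspa1b cell stands at 0.90, as does that of Hsp90aa1 and Hspd1, and the cells of Hsph1 lie between -0.30 and 0.19.

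By the same measure, the genes outside the 10 that were most like the mean of their standardized residuals were Atg9b (r = 0.90), Mbnl3 (0.87), Hspa5 (0.87), Pdcd6 (0.86) and Cct3 (0.85). When group and batch means were left in, none of these 5 remained among the 5 most alike.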

How the data were processed

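Dispersed mouse islet cells were lysed for poly(A) RNA-seq. The authors deposited 1 table with counts of reads per gene, RPKM and TPM for 24 libraries (and CPM, 24 columns not used here). It was made with the QIAGEN RNA-seq Analysis Portal. Per the labels the build is GRCm38, and the aligner is not given in the sources used here. Deposited TPM served to compare genes, with deposited RPKM as the alternative. A single row without a gene name held 0 counts and was left out. The deposited counts have no written zero (0 cells, smallest count 1), so 541306 empty cells were read as 0. None of these belonged to the 10 members (0 cells). Counts were filtered with filterByExpr, scaled by TMM and fitted with edgeR 4.0.16 (R 4.3.3) quasi-likelihood models with group and batch, and DESeq2 1.42.0 was an alternative. The fit was tested on simulated counts, with 50 genes altered at each fold. It recovered 4% of them at a fold of 1.15, 30% at 1.25, 56% at 1.5 and 72% at 2. Far fewer genes were altered there than passed with PA, which makes the adjustment stricter, so these shares are not the power of the PA tests. Standard errors are the log2 fold change over the root of F. Libraries totalled 18214719 to 35001979 counts, and precision is set by the spread between libraries. The study describes 6 independent experiments, with the groups of a replicate taken from the same animal. The main fit did not pair libraries, since the labels tie none to an animal. Members and lists were chosen with earlier results of these data known. Named were all 10 members, up to 3 genes of smallest p per list and comparison, and the 5 most alike. Hsf1 was named after its values were seen. Positions are from GENCODE vM21, sequences from RefSeq and, for the ASO, the study's oligonucleotide list.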

Additional observations from a re-analysis of the deposited data

Results flagged for a closer look

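In 3 of 40 groups of 6 libraries, 1 library stood far from the others, where chance gives about 1 in 20. Hsp90aa1 reached 665 CPM in the Ctr PA library S7, where the next highest was 542. Hspa1b reached 53.9 CPM in the aGlu PA library S12, where Hspa1a was also the highest of its group at 44.4 CPM. Hspd1 was at 162 CPM in the Ctr BSA library S1, below the other 5 of its group, and this library had the fewest counts, 18214719.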

How the results depend on the processing

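No value changed direction where it passed the test before or after a change, over 2680 recomputed values of single genes, and 125 changed sign among values that passed in neither fit. Calls were lost in 99 and gained in 24. The count of members called with PA in Ctr, 5, fell to 2 with no batch term, 2 with the compared groups alone, 1 in batch 1 alone and 3 in batch 2 alone. With PA in aGlu the count, 6, fell to 2 with no batch term, 1 in batch 1 alone and 2 in batch 2 alone. With the study's threshold of a fold over 2 and an unadjusted p below 0.05, the counts were 0 with PA in Ctr, 0 with PA in aGlu, 1 between batches (Hspb1) and 1 for the PA response between batches (Hspb1). Of all tested genes 5.91%, 5.57%, 6.38% and 1.49% passed that threshold, in the same order of comparisons. A single batch holds 3 libraries per group. The cause of the losses with no batch term was not tested. Leaving out 1 library gave 3 to 6 members with PA in Ctr, 3 to 7 with PA in aGlu and 6 to 7 between batches, and 0 in the other comparisons. The counts under DESeq2, upper-quartile scaling, both other filters and the summed Hsp70 copies stayed within 1.5 times. Among single calls, upper-quartile scaling lost Hspa8 with PA in Ctr (adjusted p = 0.0502). DESeq2 gained Hspa1a with PA in Ctr (0.0377), Dnaja1 with PA in aGlu (0.0321) and Hsp90aa1 between batches (0.0421) and lost Hspd1 between batches (0.0536). No filter gained Hspa1a with PA in Ctr (0.0436) and lost Hspa8 in Ctr (0.051), Hspa8 and Dnajb1 in aGlu (0.0627 and 0.0802) and Hspd1 between batches (0.0832). The compared groups alone gained Hsph1 and Dnaja1 with PA in aGlu (0.0251 and 0.018). Other scalings moved the median of all genes by at most 0.02 on the log2 scale. The labels number the libraries from S1 to S24 and tie none to an animal, while the study's methods state that the groups of a replicate came from the same animal. Each run of 4 numbers holds 1 library of each group, so a replicate block of these 6 runs in place of batch was added after seeing the data. Deviations from the group and batch means correlated at -0.114 to 0.299 (median 0.0933) between libraries of the same run, 17 of 36 pairs being above 0.1, and 22 of 24 libraries correlated best with one of their own run among libraries of other groups in their batch. These values are a hint from the data, and the numbers were not taken as pairs. With this block 7 members passed with PA in Ctr and 8 with PA in aGlu, at 35.3% and 34.1% of all genes, and 0 in each aGlu comparison. No member's call was lost, and Hspa1a (adjusted p = 0.0155) and Hspb1 (0.0206) with PA in Ctr and Hsph1 (0.0217) and Hsp90aa1 (0.0207) with PA in aGlu were gained. Over all genes the block gave 9 calls for aGlu in BSA in place of 0, and 65 in place of 38 in the mean over both treatments.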
